A study of Mus musculus with 2 samples.

Results

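The family of miR-15, miR-16, miR-195 and miR-497 was examined in mouse hindbrain at embryonic day 15.5. Its members were chosen by gene symbol: Mir15a, Mir16-1, Mir15b, Mir16-2, Mir195a and Mir497b, which are 6 of the 1973 microRNA gene rows in the deposited tables. For Mir497b the reads on the opposite strand were used, where Mir497 is annotated, and these are called Mir497 here. The study sequenced small RNA from 2 pools of healthy B6NCrl hindbrain, both of male and female embryos together: replicate 2 from 62 embryos and replicate 1 from 78. There is no treatment, mutant, other tissue or other age, so the values are levels in this tissue and the spread between the pools.

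The family is best known as a brake on cell division. A microRNA guides a silencing complex to messenger RNAs through its seed, bases 2 to 8 from the 5′ end, so microRNAs with the same seed share many targets. Targets described for this family in human and mouse cells include Ccnd1, Ccne1 and Cdk6, which drive entry into the cell cycle, the checkpoint kinases Wee1 and Chek1, and Bcl2, which protects cells from apoptosis. The genes lie in pairs that are transcribed together, and the embryonic hindbrain is a tissue in which progenitors divide and leave the cycle as neurons form.

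The 5p arms are shown because they carry what makes these genes a family. The seed is in capitals, and the sequences are from RefSeq on build GRCm38.p6.
miR-15a-5p: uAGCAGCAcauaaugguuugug
miR-15b-5p: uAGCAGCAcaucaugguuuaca
miR-16-5p: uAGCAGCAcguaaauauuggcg
miR-195a-5p: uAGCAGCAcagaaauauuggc
miR-497a-5p: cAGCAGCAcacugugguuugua
All 5 hold the seed AGCAGCA, which 11 of the 1738 mature mouse entries in that table hold (0.633%). Beyond the seed they fall into closer and more distant pairs. miR-195a-5p differed from miR-16-5p at 2 of 21 positions, and miR-15b-5p from miR-15a-5p at 4 of 22. miR-497a-5p differed from miR-15a-5p at 5 of 22 positions and from miR-16-5p at 11 of 22. The 3p arms have no seed in common: the 6 arms have 6 different seeds.

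The 2 copies of miR-16 cannot be told apart by their 5p arm, which bears on how their counts can be read. Both hairpins are shown with the longest stretch they share in capitals, 23 bases that hold all of miR-16-5p.
Mir16-1: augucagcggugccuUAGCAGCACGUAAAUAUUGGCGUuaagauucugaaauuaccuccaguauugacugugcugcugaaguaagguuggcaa
Mir16-2: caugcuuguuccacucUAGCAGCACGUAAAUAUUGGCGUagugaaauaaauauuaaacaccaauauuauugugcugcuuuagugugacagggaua
A read that lies within the capitals fits both hairpins. The tables list reads placed at several loci apart from the genes, at 34.2% of all reads in replicate 2 and 35.4% in replicate 1, and how many of these are miR-16-5p is not given. The counts of Mir16-1 and Mir16-2 are therefore uncertain and leave out an unknown part of that arm. The 3p arms do separate the copies, and they are shown with the seed in capitals.
miR-16-1-3p: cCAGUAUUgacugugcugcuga
miR-16-2-3p: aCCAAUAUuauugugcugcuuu
Among the 1005 hairpins searched, no other mature arm of the family lay in more than 1. The longest stretch that Mir195a shared with another hairpin was 16 bases, with Mir195b, which had no read in either library. For Mir15b and Mir497 the longest were 11 and 12 bases. The hairpin of Mir15a was not used in this search for shared stretches.

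The members lie at 3 places in the genome, given from GENCODE M21 on build mm10. Mir15a (ENSMUSG00000093007.1) and Mir16-1 (ENSMUSG00000092995.1) lie 54 bases apart on the minus strand of chromosome 14, from 61631880 to 61632110, within the long non-coding gene Dleu2. There Mir15a is in an intron, while Mir16-1 overlaps an exon of at least 1 annotated transcript. Mir15b (ENSMUSG00000065580.1) and Mir16-2 (ENSMUSG00000065606.1) lie 66 bases apart on the plus strand of chromosome 3, from 69009772 to 69009996, in an intron of Smc4, which encodes a subunit of condensin, the complex that compacts chromosomes for mitosis. Mir497 and Mir195a (ENSMUSG00000065411.2) lie 241 bases apart on the plus strand of chromosome 11, from 70234717 to 70235135, and the annotation places no host gene around them.

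Replicate 2 held 10507754 reads and replicate 1 held 8327917, of which 4839647 and 3937840 lay on the own strand of a microRNA gene. Levels are counts scaled by that total (CPM). A read covers a mature arm, so counts were not divided by the length of the hairpin. The tissue label was checked against marker microRNAs: the 11 hindbrain and neural markers found took 14.01% of gene reads in replicate 2 and 9.95% in replicate 1, nearly all of it in Mir10a and Mir10b, which lie in the Hox clusters that pattern the caudal hindbrain. Mir10a had 396014 reads in replicate 2 and 239007 in replicate 1. Of the muscle markers Mir206, whose mature arms occur in no other gene of the RefSeq table, had 113 reads in replicate 2 and 107 in replicate 1. The neuronal Mir124a genes, at 6 to 21 reads, and the muscle genes Mir1a-1 and Mir133a-1, at 0, belong to microRNAs with several gene copies. Reads that fit several copies are left out of gene counts, so these counts say nothing about neurons or muscle.

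By reads placed at 1 locus, the 6 family genes held 28462 reads in replicate 2 and 24272 in replicate 1, or 0.588% (95% exact interval 0.581 to 0.595) and 0.616% (0.609 to 0.624) of the gene reads, a mean of 0.602% ± 0.0200 (SD, n = 2). All 6 genes had at least 1054 reads in each library, and all 6 passed the count minimum of 10 reads. The family's reads lack the miR-16-5p reads placed at several loci and the total lacks all reads so placed, so the family's share of all microRNA reads cannot be given. The intervals cover counting error only, since reads without molecular identifiers are not independent molecules.

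The Dleu2 pair was the most abundant by reads placed at 1 locus. Mir15a had 13009 reads in replicate 2 and 11109 in replicate 1, or 2688 and 2821 CPM (2755 ± 94.1, SD, n = 2). Mir16-1 had 7458 and 6387 reads in replicates 2 and 1, or 1541 and 1622 CPM (1582 ± 57.2). Both genes had the smaller CPM in replicate 2, and their values did not overlap each other. The pair held 71.9% of the family's reads in replicate 2 (71.4 to 72.4) and 72.1% in replicate 1 (71.5 to 72.6).

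The Smc4 pair was lower, in the same order of partners. Mir15b had 3088 reads in replicate 2 and 2417 in replicate 1, or 638 and 614 CPM (626 ± 17.2, SD, n = 2). Mir16-2 had 1385 and 1054 reads in replicates 2 and 1, or 286 and 268 CPM (277 ± 13.1). Both had the larger CPM in replicate 2. The pair held 15.7% of the family's reads in replicate 2 (15.3 to 16.1) and 14.3% in replicate 1 (13.9 to 14.7).

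The chromosome 11 pair held the remaining 12.4% in replicate 2 (11.99 to 12.8) and 13.6% in replicate 1 (13.2 to 14.1). Mir497 had 1903 reads in replicate 2 and 1732 in replicate 1, or 393 and 440 CPM (417 ± 33.0, SD, n = 2). Mir195a had 1619 and 1573 reads in replicates 2 and 1, or 335 and 399 CPM (367 ± 45.9). Here the 2 genes were close to each other and both had the smaller CPM in replicate 2. In mouse heart, miR-195 is known to repress Chek1 as heart muscle cells stop dividing after birth.

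**Figure D1:**
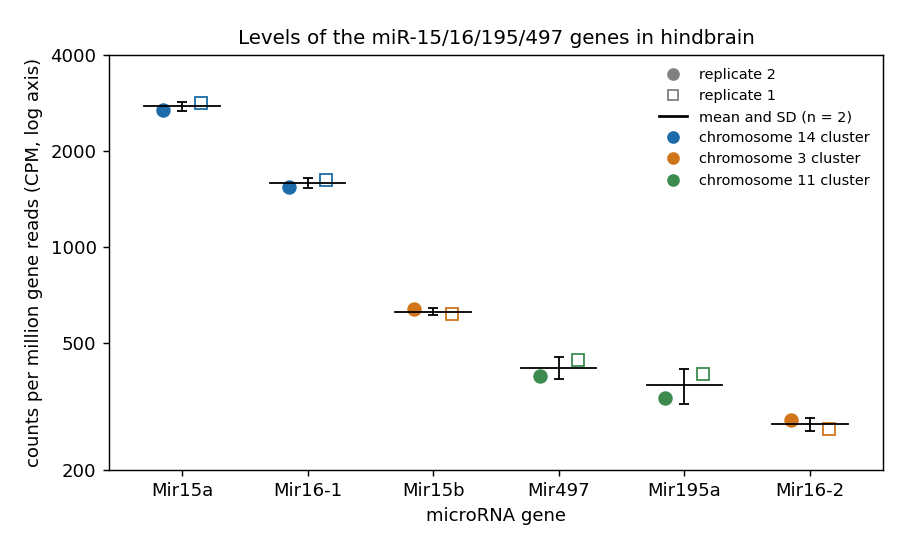
Level in CPM (log axis) of each family gene in replicate 2 (filled circles) and replicate 1 (open squares), with the mean and SD (n = 2), coloured by cluster. The values run from 2821 CPM for Mir15a down to 268 CPM for Mir16-2, and the replicates of each gene lie close together.

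The order of levels was Mir15a, Mir16-1, Mir15b, Mir497, Mir195a and Mir16-2. Neighbours in this order did not overlap between libraries, with 1 exception: the lower value of Mir497, 393 CPM in replicate 2, lay below the higher value of Mir195a, 399 CPM in replicate 1. The largest step was from Mir16-1 to Mir15b, 2.42-fold in replicate 2 and 2.64-fold in replicate 1. An exact permutation test of 2 values against 2 cannot give a two-sided p below 0.333, so no p is given for the order. It is an order of reads, and the places of Mir16-1 and Mir16-2 in it rest on counts that lack an unknown part of miR-16-5p.

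Among the 1974 features ranked by mean CPM, which are the gene rows and Mir497, Mir15a stood at rank 62 and Mir16-1 at rank 81. Mir15b stood at 112, Mir497 at 130, Mir195a at 140 and Mir16-2 at 153. The genes directly above and below Mir15a were Mir298 at 2782 ± 82.2 CPM and Mir1298 at 2684 ± 545 CPM, and those around Mir16-1 were Mir153 at 1597 ± 133 CPM and Mir433 at 1526 ± 107 CPM (SD, n = 2). These are neighbours in level only, since 2 libraries of 1 tissue give no pattern across conditions to compare.

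**Figure D2:**
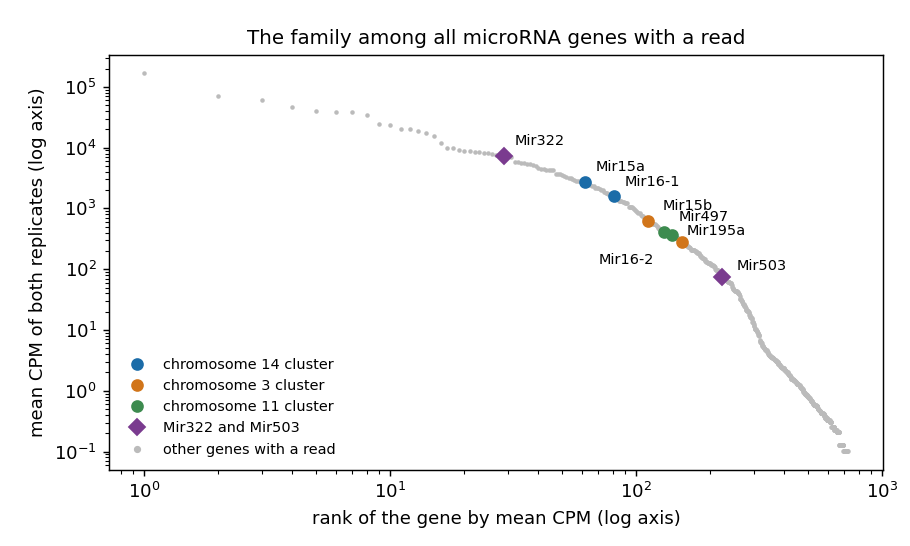
Mean CPM of both replicates against the rank of each microRNA gene with at least 1 read (both axes logarithmic), with the family genes coloured by cluster and the related genes Mir322 and Mir503 as diamonds. The family genes stand between rank 62 and rank 153, below Mir322 and above Mir503.

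The reads of the family kept to the annotated strand. Mir15a, Mir16-1, Mir15b, Mir16-2 and Mir195a had 0 reads on their opposite strand in both libraries. For Mir15a a count of 0 allows an opposite share of up to 0.0231% in replicate 2 and 0.0270% in replicate 1, and for Mir16-2, with the fewest reads, up to 0.217% and 0.285%. The row of Mir497b (ENSMUSG00000070109.2; chromosome 11, 70234692 to 70234816, minus strand) was the reverse. Of its reads 1903 of 1903 in replicate 2 and 1732 of 1734 in replicate 1 lay on the other strand, where Mir497 is annotated from 70234717 to 70234800. On the strand of Mir497b itself lay 0 reads in replicate 2, where a count of 0 allows up to 3, and 2 reads in replicate 1. The mature sequences of both genes overlap by 17 bases, from 70234770 to 70234786, and are complementary there, as the capitals show.
miR-497a-3p: CAAACCACACUGUGGUGuuag
miR-497b: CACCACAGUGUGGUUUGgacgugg
Strand is therefore what separates Mir497 from Mir497b in these tables.

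The ratio of reads between partners differed little between the pools in all 3 pairs. Ratios with Mir16-1 or Mir16-2 rest on reads placed at 1 locus, which lack an unknown part of miR-16-5p. Their size is therefore uncertain, and they do not show whether miR-15 or miR-16 was the more abundant. By reads placed at 1 locus, Mir15a exceeded Mir16-1 by 1.74-fold in replicate 2 (95% exact interval 1.70 to 1.79) and 1.74-fold in replicate 1 (1.69 to 1.79). Mir15b exceeded Mir16-2 by 2.23-fold (2.09 to 2.38) in replicate 2 and 2.29-fold (2.13 to 2.47) in replicate 1. Mir195a stood at 0.851 of Mir497 (0.796 to 0.910) in replicate 2 and at 0.908 (0.848 to 0.973) in replicate 1. The ratio changed between the libraries by a factor of 1.00 (0.961 to 1.05) for Mir15a to Mir16-1, 0.972 (0.882 to 1.07) for Mir15b to Mir16-2 and 0.937 (0.851 to 1.03) for Mir195a to Mir497, replicate 2 over replicate 1. By Fisher's exact test, two-sided and adjusted over the 3 pairs, none of these passed, with adjusted p of 0.898, 0.859 and 0.546. The intervals limit how far each ratio can have changed, by counting error alone, and do not show that the ratios were equal.

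**Figure D3:**
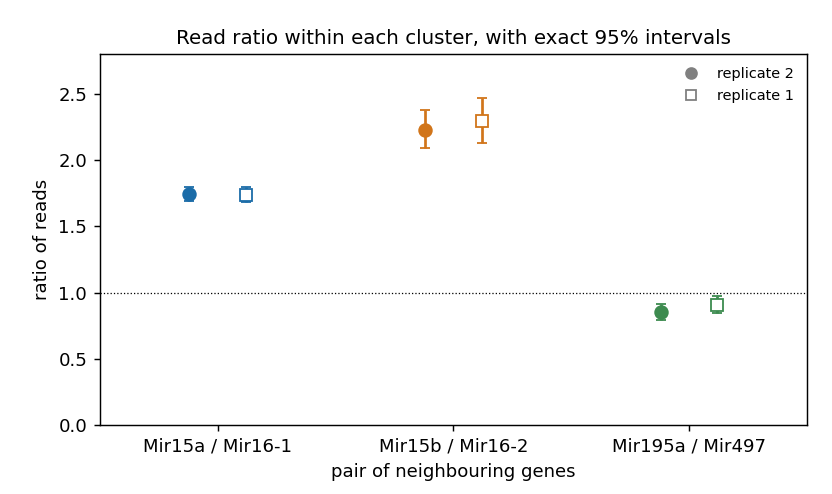
Ratio of reads between the 2 genes of each cluster in replicate 2 (filled circles) and replicate 1 (open squares), with exact 95% intervals that cover counting error, and a dotted line at equal reads. The intervals of both replicates overlap in each pair, around 1.74 for Mir15a to Mir16-1, 2.26 for Mir15b to Mir16-2 and 0.879 for Mir195a to Mir497.

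Between clusters the changes in ratio lay further from 1 than within the pairs, though some of the intervals overlap with those within the pairs. The Dleu2 pair exceeded the Smc4 pair 4.58-fold in replicate 2 (4.43 to 4.73) and 5.04-fold in replicate 1 (4.86 to 5.23), a change of 0.908 (0.864 to 0.953). The chromosome 11 pair stood at 0.787 of the Smc4 pair in replicate 2 (0.753 to 0.823) and at 0.952 in replicate 1 (0.908 to 0.999), a change of 0.827 (0.775 to 0.883). Against the Dleu2 pair it stood at 0.172 in replicate 2 and 0.189 in replicate 1, a change of 0.911 (0.865 to 0.960). For single paralogs, Mir15a exceeded Mir15b 4.21-fold in replicate 2 and 4.60-fold in replicate 1, and Mir16-1 exceeded Mir16-2 5.38-fold and 6.06-fold. Apart from Mir15a to Mir15b, these ratios include Mir16-1 or Mir16-2, whose counts lack an unknown part of miR-16-5p. Their size and direction are therefore uncertain. The ratios between clusters were set side by side after the values were seen, so they carry no p.

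The 2 pools were then compared gene by gene, after scaling by the trimmed mean of M-values (TMM), with an exact binomial test adjusted over all 427 features with at least 10 reads in a library. This test compares 2 libraries and covers counting error only. It called 158 of the 427 (37.0%), 69 higher in replicate 2 (16.2%) and 89 lower (20.8%). Of the 6 family genes 4 were called, all lower in replicate 2, and none higher. Their median log2 ratio was -0.08, against -0.01 over all 427, and their median absolute log2 ratio was 0.09, against 0.17. The 427 include features with few reads, while all 6 family genes had at least 1054 in each library, so these backgrounds are not matched in count. Among the 308 features with at least 50 reads in a library, 154 were called, 67 higher in replicate 2 (21.8%) and 87 lower (28.2%). Calls in both directions were thus more frequent among better counted features, and this minimum is still far below the counts of the family. Of the family the same 4 genes were called at this minimum. Which direction had more calls depended on the scaling. Over the 427, DESeq2 size factors gave 78 higher (18.3%) and 68 lower (15.9%). TMM over all gene rows gave 78 higher and 70 lower, and total counts gave 71 higher and 79 lower.

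The lower genes were the Dleu2 and chromosome 11 pairs. Mir195a had a log2 ratio of replicate 2 over replicate 1 of -0.27 (95% exact interval -0.37 to -0.17; adjusted p 8.5e-07, exact binomial test). Mir497 had -0.17 (-0.27 to -0.08; adjusted p 0.00114, exact binomial test). Mir15a had -0.08 (-0.12 to -0.05) and Mir16-1 -0.09 (-0.14 to -0.04), with adjusted p of 4.7e-05 and 0.00171 by the same exact test. With DESeq2 size factors in place of TMM the log2 ratio of Mir16-1 was -0.06 and was not called, with an adjusted p of 0.0546 (range over all the scalings, filters and strands tried 0.00124 to 0.0546). The Smc4 pair had ratios on the other side of 0 and was not called: 0.04 for Mir15b (-0.03 to 0.12) and 0.08 for Mir16-2 (-0.03 to 0.20), with adjusted p of 0.447 and 0.293 by the exact test.

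The log2 ratio had an SD of 0.18 over the 209 features whose mean CPM was 100 or more, and of the family Mir195a lay outside that distance from 0, Mir497 close to it and the other 4 genes well within it. The biological coefficient of variation from edgeR was 10.5%, estimated from the difference between these same 2 libraries. At an allowed coefficient of variation of 0.1 for every gene, the exact test of edgeR called 6 of the 427 (1.41%) and none of the family, of which 0 had an unadjusted p under 0.05. The allowed value is near that estimate, so the test could call few genes and is no separate check. With 1 library on each side, a difference between pools cannot be told apart from variation between libraries.

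The hindbrain and neural markers together took more of the gene reads in replicate 2, 14.01% against 9.95% in replicate 1. Most of this difference lay in Mir10a, with 81827 CPM in replicate 2 and 60695 in replicate 1, and Mir10b, with 48577 and 30176. Most other markers of this list were also higher in replicate 2, such as Mir137 with a log2 ratio of 0.14. Mir218-2, with -0.20, and Mir124a-3, with 9 reads in replicate 2 and 10 in replicate 1, were lower. Markers of other cell types differed between the pools in both directions. Endothelial Mir126a had 22600 CPM in replicate 2 and 25702 in replicate 1, a log2 ratio of -0.20. The 4 mesenchymal markers summed to 5845 CPM in replicate 2 and 6493 in replicate 1, with none of the 4 at 0. Their log2 ratios were -0.17 for Mir143, 0.02 for Mir145a, -0.07 for Mir214 and -1.21 for Mir199a-2. Mir199a-2 had 23 reads in replicate 2 and 43 in replicate 1, and its mature arms occur in other genes too. Of the 5 blood markers 4 were found, and these summed to 356 and 480 CPM in replicates 2 and 1, with none at 0. Their log2 ratios were -1.04 for Mir144, -0.51 for Mir223, -0.35 for Mir451a and -0.21 for Mir150. Liver Mir122 went the other way, with 57.0 CPM in replicate 2 and 35.6 in replicate 1, a log2 ratio of 0.67 (adjusted p 2.8e-05, exact binomial test). The part of these cell types in the family's differences was not tested, and in whole tissue fewer cells of a type and less RNA per cell cannot be told apart.

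**Figure D4:**
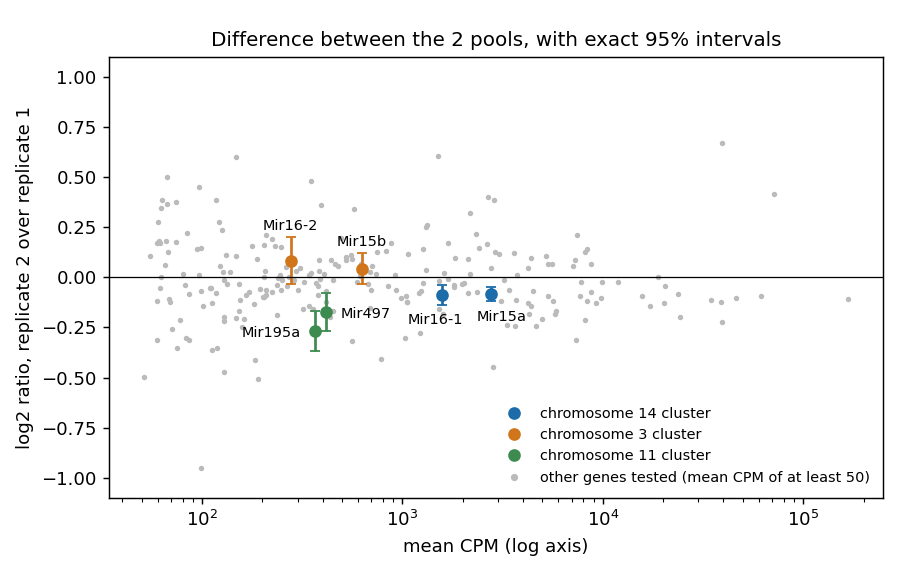
Log2 ratio of replicate 2 over replicate 1 after TMM scaling, against mean CPM (log axis), for the 6 family genes with exact 95% intervals (counting error) and for 239 other tested genes whose mean CPM was 50 or more in grey. The Dleu2 and chromosome 11 pairs lie below 0 and the Smc4 pair at or above it, all within the range of the grey points.

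Genes outside the family carry the same seed. Of the 11 genes with AGCAGCA at bases 2 to 8, the other 5 are Mir322, Mir195b, Mir6342, Mir6353 and Mir6419, and 4 of them, all but Mir322, had no read in either library. Mir322 lies on chromosome X from 53054255 to 53054349, next to Mir503, whose seed differs in its last base, and the pair is known from mouse muscle cells to promote exit from the cell cycle. Both 5p arms are shown for comparison with the family.
miR-322-5p: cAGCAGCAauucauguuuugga
miR-503-5p: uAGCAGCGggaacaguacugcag
Mir322 had 31963 reads in replicate 2 and 32000 in replicate 1, or 6604 and 8126 CPM (7365 ± 1076, SD, n = 2). That was more than the 6 family genes together, which averaged 6022 ± 200 CPM. It held 52.9% of the reads of genes with this seed in replicate 2 (52.5 to 53.3) and 56.9% in replicate 1 (56.5 to 57.3), before any miR-16-5p read placed at several loci. Mir503 had 321 and 331 reads in replicates 2 and 1 (75.2 ± 12.5 CPM). Both were lower in replicate 2, with log2 ratios of -0.31 (-0.33 to -0.29) for Mir322 and -0.35 (-0.58 to -0.13) for Mir503 and adjusted p of 1.1e-162 and 0.0066 by the exact binomial test, which covers counting error only. At an allowed coefficient of variation of 0.1 neither was called by the exact test of edgeR, with adjusted p of 0.812 and 0.814.

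Other microRNAs tied to the cell cycle were counted from 2 lists. The miR-17-92 and miR-106b-25 clusters, which favour proliferation, took 3.94% (replicate 2) and 4.23% (replicate 1) of gene reads over their 9 genes. Of the 9, 2 were called higher in replicate 2 and 4 lower, with a median log2 ratio of -0.14, against 16.2% higher and 20.8% lower over all 427 features. The highest were Mir17 at 17206 ± 1095 CPM and Mir93 at 8148 ± 794 CPM, each above the 6 family genes together by reads placed at 1 locus. The miR-34 and miR-449 genes, which are linked to cell cycle arrest and to ciliated cells, held 0.483% in replicate 2 and 0.378% in replicate 1. Of their 6 genes 5 were tested and 3 were called, all higher in replicate 2, with a median log2 ratio of 0.39, against 37.0% called and 16.2% called higher over all features. At an allowed coefficient of variation of 0.1, where 1.41% of all features were called, 0 genes of either list were called. The highest were Mir449a at 2854 ± 555 CPM and Mir34c at 1319 ± 178 CPM (SD, n = 2). Mir449a was thus near Mir15a in level and Mir34c below Mir16-1.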

How the data were processed

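Each library has a table of raw read counts, deposited by the authors. The build is mm10 per the labels, and the annotation GENCODE M4 per the deposited notes. Which aligner, trimmer and counter made them is not given in the sources used here. The 1973 gene rows hold counts for both strands, the own strand and the opposite strand, and the first equalled the sum of the others in every row. Rows of unmapped, multi-locus and unassigned reads name no gene and entered neither library sizes nor tests (their shares of all reads were 15.8%, 34.2% and 2.96% in replicate 2, and 13.7%, 35.4% and 2.56% in replicate 1). A row counts the whole hairpin, and its arms are not told apart.

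Symbols and positions came from GENCODE M21 by identifier without version (1894 of 1973 matched), and sequences from RefSeq (GRCm38.p6). Of the members' row versions, that of Mir15b differs between the tables and M21. CPM used the own-strand total as denominator, also for Mir497. Ratios used TMM factors from features that reached 10 reads in 1 library or both and an exact two-sided conditional binomial test with Benjamini-Hochberg adjustment (threshold 0.05), in edgeR 4.0.16 and R 4.3.3. A quasi-likelihood test needs replicated groups and was not used. Shares have exact Clopper-Pearson 95% intervals (scipy 1.17.1, Python 3.11.15). Code was tested on simulated data. A count of 0 allows 3 reads, which is 0.620 CPM (replicate 2) or 0.762 CPM (replicate 1). Alternatives were DESeq2 1.42.0 size factors, total counts, TMM over all rows (chosen after seeing the data), other count minimums (1 and 50), both strands, the exact test of edgeR at an allowed coefficient of variation of 0.1 or 0.2, and each replicate left out.

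The members and lists were chosen with earlier results of these data known. Named genes were the members, genes with their seed, Mir322 and Mir503, the 2 highest of each list, and the genes next in level to the 2 highest members. Mir10a, Mir10b, the Mir124a genes, Mir137, Mir218-2, Mir1a-1, Mir133a-1, Mir206, Mir126a, Mir143, Mir145a, Mir199a-2, Mir214, Mir451a, Mir144, Mir223, Mir150 and Mir122 were named as markers. The listed Mir18a is the row Mir18. Nothing in the labels says that the pools share a litter or a day.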

Additional observations from a re-analysis of the deposited data

How the results depend on the processing

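All 24 log2 ratios of family genes under another scaling or with both strands kept their sign. A scaling shifts all genes alike, here by -0.013 (TMM), 0.016 (DESeq2) and 0.015 (TMM over all rows) against total counts. With shifts this small the signs could hardly change, so the 24 are not separate checks. The levels, the family share and the partner ratios moved by less than 1 SD with both strands together and with TMM-scaled sizes (not applicable to ratios). With 2 replicates, leaving out either moves a mean by a fixed part of its SD, so it says nothing about stability. At an allowed coefficient of variation of 0.1 the exact test of edgeR called 6 genes in place of 158 by the exact binomial test, and with 0.2 it called 0, with 12 at an unadjusted p under 0.05. Of the family it called 0 in place of 4 at both settings, with 0 at an unadjusted p under 0.05. This setting, at 0.1 near the spread estimated from these same 2 libraries, changes only the spread allowed and cannot change the log2 ratios. These stayed at -0.083 for Mir15a, -0.087 for Mir16-1, -0.17 for Mir497 and -0.27 for Mir195a. With DESeq2 size factors Mir16-1 was at -0.058 and not called. A comparison of the libraries cannot be made with a replicate left out. No paired analysis was possible because there is 1 group. The depth sets narrow counting intervals, while 2 pools leave the spread between animals poorly known, and the miR-16 counts are limited by reads placed at several loci.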
